A study of Mus musculus with 16 samples.

Results

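The nuclear genome encodes most subunits of the 5 complexes that carry out oxidative phosphorylation, and their transcripts were followed here in mouse tumours with and without Trp53bp1, which encodes 53BP1, a protein that acts in DNA double-strand break repair. Members were chosen by symbol alone. They were genes starting with Ndufa, Ndufb, Ndufc, Ndufs or Ndufv and a digit, and the Sdh genes a to d. Genes starting with Uqcr, Cox4 to Cox8 or Atp5 were added, and symbols containing -ps were left out. The rule found 87 of the 18635 genes listed in the deposited tables, of which 39 belong to complex I, 4 to complex II, 8 to complex III, 19 to complex IV and 17 to complex V. Ndufa4 and Ndufa4l2 were placed with complex IV.

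The 4 groups of libraries were compared by genotype within each line. They were 3 Trp53bp1 knockout (KO) and 3 wild-type (WT) samples of ID8, an ovarian cancer line from mouse surface epithelium, and 5 KO and 5 WT samples of KPC, a line from mouse pancreatic cancer. The samples are labelled as tumours grown from lines implanted in syngeneic mice, although the extraction protocol speaks of RNA from cells. Each genotype of each line is 1 cell line, so loss of Trp53bp1 and any other difference between the 2 lines of a pair cannot be told apart, and the labels do not say whether a KO line is 1 clone.

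Complexes I to IV form the respiratory chain of the inner mitochondrial membrane. Complexes I and II pass electrons from NADH and succinate to ubiquinone, complex III passes them on to cytochrome c, and complex IV (cytochrome c oxidase) hands them to oxygen. Protons pumped by complexes I, III and IV drive the rotary ATP synthase, complex V. Some subunits of complex IV have a second gene that is used in heart and skeletal muscle or under low oxygen.

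Library totals were 17902867 to 19727536 counts, and the members took 1.08% to 1.13% of the counts in ID8 KO, 1.19% to 1.26% in ID8 WT, 0.825% to 1.03% in KPC KO and 0.819% to 1.09% in KPC WT. Values below are CPM, the count over the library total scaled by edgeR's TMM factors within a line. Trp53bp1 itself averaged 18.4 ± 0.502 CPM in ID8 KO and 46.1 ± 2.89 CPM in ID8 WT (SD, n = 3 each), a log2 fold change of -1.33 (SE 0.07, edgeR adjusted p = 1.15e-10). In KPC it averaged 34.1 ± 3.99 CPM in KO and 51.5 ± 3.59 CPM in WT (SD, n = 5 each), a log2 fold change of -0.59 (SE 0.09, edgeR adjusted p = 0.004). KO and WT libraries were fully apart in both lines (exact two-sided permutation test, p = 0.1 in ID8 and p = 0.00794 in KPC, each the smallest its design allows). Replicates varied less in ID8 than in KPC, with a biological coefficient of variation of 5.08% against 25.1% in KPC. Of the fixed host cell markers, all 3 haemoglobin genes and Ptprc, the pan-leukocyte marker, had no counts in any ID8 library, as did the endothelial markers Cdh5 and Kdr, and all had counts in KPC. Adgre1 and Cd3e of the leukocyte list were also at 0 in all ID8 libraries. Lyz2 reached at most 0.158 CPM there and Csf1r at most 0.257 CPM, too few for the test. The 1 tested leukocyte marker, Cd68, and the 2 tested endothelial markers differed by genotype in ID8. Cd68, a macrophage marker, had a log2 fold change of -1.46 (SE 0.13, edgeR adjusted p = 1.36e-07) and Pecam1, an endothelial marker, of -1.18 (SE 0.21, edgeR adjusted p = 0.000218), and both were lower in KO. Tek, another endothelial marker, was higher in KO, with 1.02, 0.564 and 0.617 CPM in KO, against 0, 0.0527 and 0.0525 CPM in WT (edgeR adjusted p = 5.79e-05).

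Promoters of 5 members that the results turn on are shown first: the member that fell furthest for its error in ID8 (Ndufv3), the one that rose there (Ndufv1), both members whose groups separated fully in KPC (Cox8a and Cox6a1), and a form used in muscle (Cox8b). Each sequence runs 5′ to 3′ over 250 bases before and 50 bases after the annotated start in RefSeq on GRCm38.p6, which is an older build than that of the count tables. Capitals mark matches, on either strand, to core letters of factors known to act on such genes: GCGCNTGCG for NRF1, CCGGAAG for GABPA, ACGTG for the hypoxia response element and TATAAA for the TATA box. The hypoxia element letters also lie within the CACGTG of an E-box.
Ndufv3, chr17:31519865-31520164, plus strand: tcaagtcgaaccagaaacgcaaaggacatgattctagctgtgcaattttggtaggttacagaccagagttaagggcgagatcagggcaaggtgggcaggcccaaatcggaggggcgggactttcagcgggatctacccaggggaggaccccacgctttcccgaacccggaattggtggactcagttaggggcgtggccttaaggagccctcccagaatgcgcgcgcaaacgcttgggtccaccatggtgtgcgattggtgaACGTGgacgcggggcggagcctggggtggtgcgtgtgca
Ndufv1, chr19:4012706-4013005, minus strand: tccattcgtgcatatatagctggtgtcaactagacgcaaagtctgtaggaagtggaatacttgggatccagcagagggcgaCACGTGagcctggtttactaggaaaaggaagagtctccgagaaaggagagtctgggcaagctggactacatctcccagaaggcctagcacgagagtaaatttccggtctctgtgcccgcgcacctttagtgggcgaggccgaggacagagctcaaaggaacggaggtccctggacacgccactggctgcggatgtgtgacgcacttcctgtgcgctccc
Cox8a, chr19:7217567-7217866, minus strand: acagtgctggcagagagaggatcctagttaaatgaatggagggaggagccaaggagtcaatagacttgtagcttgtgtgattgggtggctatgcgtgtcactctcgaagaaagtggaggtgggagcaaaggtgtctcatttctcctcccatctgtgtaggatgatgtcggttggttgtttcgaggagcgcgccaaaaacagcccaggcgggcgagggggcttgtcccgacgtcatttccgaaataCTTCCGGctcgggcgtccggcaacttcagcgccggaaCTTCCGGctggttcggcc
Cox6a1, chr5:115348909-115349208, minus strand: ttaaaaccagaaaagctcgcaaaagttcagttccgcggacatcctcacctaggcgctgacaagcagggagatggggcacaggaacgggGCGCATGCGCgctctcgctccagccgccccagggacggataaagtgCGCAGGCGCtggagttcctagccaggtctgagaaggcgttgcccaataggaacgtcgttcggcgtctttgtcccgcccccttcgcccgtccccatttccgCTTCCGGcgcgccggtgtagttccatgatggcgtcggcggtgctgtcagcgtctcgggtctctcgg
Cox8b, chr7:140900397-140900696, minus strand: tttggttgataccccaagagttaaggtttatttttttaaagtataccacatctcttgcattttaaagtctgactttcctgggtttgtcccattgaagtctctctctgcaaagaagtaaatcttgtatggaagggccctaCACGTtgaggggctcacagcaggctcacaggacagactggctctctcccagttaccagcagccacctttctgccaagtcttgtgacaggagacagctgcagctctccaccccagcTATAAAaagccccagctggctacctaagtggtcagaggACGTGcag

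Ndufv3 and Ndufv1 each held the hypoxia element letters, Cox8a the GABPA letters at 2 places, Cox6a1 the NRF1 and GABPA letters, and Cox8b the TATA box and hypoxia element letters. Of the 87 members, 70 matched at least 1 of 75 promoters in the RefSeq table. NRF1 letters were in 33.3% of these member promoters, against 11.5% of 14717 promoters of the tested genes. ERR letters (AAGGTCA) were in 10.7%, against 3.38%, YY1 letters (ATGGCGG) in 14.7%, against 7.01%, and GABPA letters in 22.7%, against 15.5%. Hypoxia element letters were in 25.3%, against 24.1%, and TATA box letters in 12%, against 8.03%. Members with and without the NRF1 letters had like changes in ID8: 17 of 24 tested members with them fell, with a median log2 fold change of -0.24, as did 31 of 42 without them, with a median of -0.23. For the GABPA letters, 10 of 17 with them fell in ID8, with a median of -0.17, and 38 of 49 without them, with a median of -0.28. In KPC, 2 of 24 with the NRF1 letters and 4 of 43 without them rose, as did 2 of 17 with the GABPA letters and 4 of 50 without them. None of these differences was tested. The matches are descriptions of these windows and not binding sites.

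In ID8 most subunit genes were lower in KO than in WT, by a modest amount and in all 5 complexes. Of 79 members that passed the count filter, 57 fell (72.2%), where 25.5% of all 11933 tested genes fell. In a joint fit of the 4 groups, whose spread estimate includes the KPC libraries, 17 of 84 members fell, where 10.1% of all genes fell. One member, Ndufv1, rose, where 25.4% of all tested genes rose, and 21 did not pass the test. The median log2 fold change was -0.23 over the members and 0.01 over all tested genes, and 75 of 79 members had a negative value. The groups lay fully apart, KO below WT, for 55 members, where 28.8% of all genes did, and KO above WT for 1 member, where 29.1% did. Only Cox7a1 was called with a change of at least 2-fold. Less RNA per cell and fewer cells of a type cannot be told apart in such bulk samples.

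**Figure D1:**
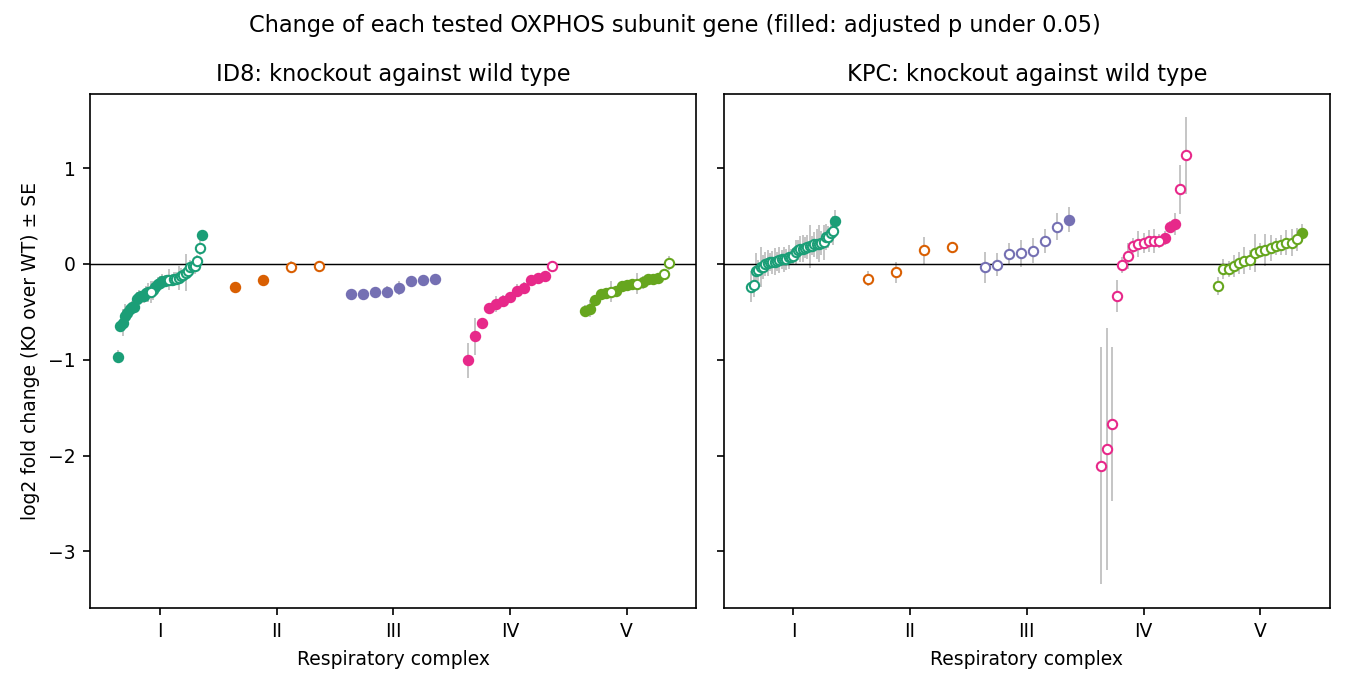
Log2 fold change of each tested member (KO over WT, ± SE), ordered by size within its complex, in ID8 at left and KPC at right, with filled points for an edgeR adjusted p under 0.05. In ID8 57 filled points lie below 0 and 1 above, and in KPC 6 lie above 0 and none below.

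Summed over the 87 members, ID8 KO libraries held 10810, 10520 and 10970 CPM, against 12950, 12250 and 12820 CPM in ID8 WT. All KO sums lay below all WT sums, and the same held for each complex taken alone. Complex V had the largest sums, 4205 ± 130 CPM in KO and 4960 ± 106 CPM in WT (SD, n = 3 each). Complex IV had 2649 ± 62.5 CPM in KO and 3196 ± 151 CPM in WT (SD, n = 3 each). The gap was narrowest for complex II, with 634 to 653 CPM in KO and 674 to 699 CPM in WT. In the same libraries the 5 fixed epithelial markers summed to 2779 to 2869 CPM in KO and 3611 to 3899 CPM in WT, with 4 of the 5 called lower. Krt8, Krt18 and Krt19 made up nearly all of that sum. Epcam, also called lower, averaged 0.837 CPM in KO and 3.20 CPM in WT. Cdh1, not called, had at most 1.10 CPM in any ID8 library. The 5 fibroblast markers summed to 151 to 188 CPM in KO and 475 to 599 CPM in WT, with 2 of 3 tested called lower (Col1a1 and Col3a1). These 2 collagens made up most of the sum. Pdgfra, the third tested, averaged 40.2 CPM in KO and 39.1 CPM in WT (log2 0.04, SE 0.07, edgeR adjusted p = 0.651). Lum and Pdgfrb had at most 0.105 CPM in any ID8 library. The part these play in the subunit result was not tested.

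**Figure D2:**
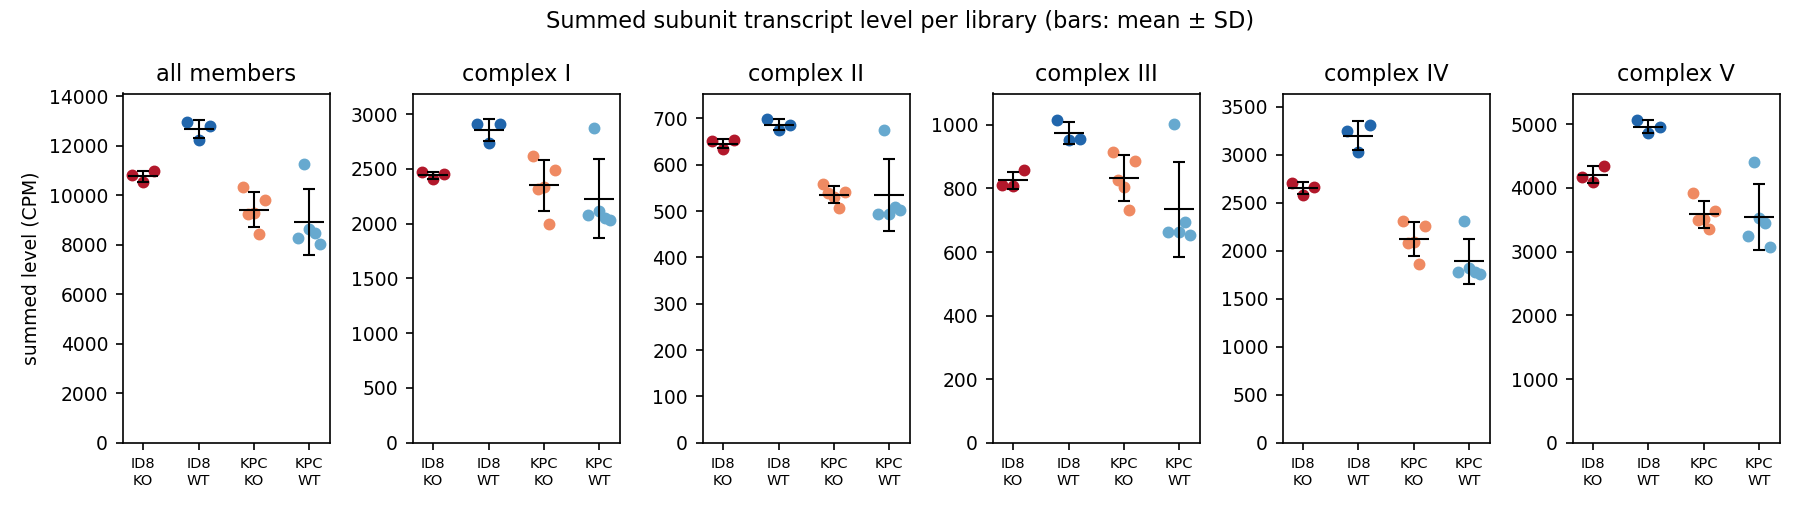
Summed level of all members and of each complex (CPM, axes from 0) in each library of ID8 KO, ID8 WT, KPC KO and KPC WT, with bars for mean ± SD. The ID8 groups are apart in every panel, and a single KPC WT library lies far above the other KPC WT libraries.

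Complex I (NADH dehydrogenase) showed both the widest spread and the only rise in ID8. Of its 37 tested members 22 fell, 1 rose and 14 did not pass, with a median log2 fold change of -0.20. Ndufv3, an accessory subunit of the module where NADH is oxidised, had 41.6, 43.0 and 40.6 CPM in KO, against 90.3, 81.3 and 73.8 CPM in WT. The KO libraries lay close together and far below any WT library. The change was -0.97 on the log2 scale (SE 0.07, edgeR adjusted p = 6.21e-09), a level that fell by 49.0%.

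Ndufv1, the core subunit that binds NADH and flavin mononucleotide, went the other way. It had 217, 224 and 216 CPM in KO, against 178, 166 and 189 CPM in WT. The lowest KO library was above the highest WT library. Its change on the log2 scale was 0.30 (SE 0.05, edgeR adjusted p = 0.000123). Ndufv1 and Ndufv3 are parts of the same module of the complex.

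The 7 fixed members of the catalytic core (the Ndufs and Ndufv proteins that hold the flavin and the iron-sulphur clusters) were mixed in ID8, with 4 lower, 1 higher and 2 that did not pass. Ndufs1, the largest subunit of the core, had 72.0, 78.8 and 80.0 CPM in KO, against 76.6, 74.4 and 74.3 CPM in WT, and its groups overlapped.

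Accessory subunits of complex I fell more often than not. Of 12 tested Ndufa accessory members 6 fell, with a median log2 fold change of -0.29, and of 12 tested Ndufb members 8 fell, with a median of -0.25. Ndufb9, a membrane arm subunit, had 87.1, 84.1 and 94.9 CPM in KO, against 151, 132 and 135 CPM in WT (log2 -0.65, SE 0.06, edgeR adjusted p = 1.74e-07). Ndufa1, a small subunit needed for assembly of the membrane arm, had 24.5, 23.4 and 32.7 CPM in KO, against 45.1, 42.1 and 36.1 CPM in WT. KO replicate 3 was close to WT replicate 3, and the log2 fold change of -0.61 had an SE of 0.14 (edgeR adjusted p = 0.00753). Ndufb8, whose protein is often used as a sign of assembled complex I, had 146, 145 and 136 CPM in KO, against 154, 137 and 142 CPM in WT, and these values overlapped.

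Complex II (succinate dehydrogenase) was split in ID8. Sdhb, the iron-sulphur subunit, and Sdhd, a membrane anchor, fell, with log2 fold changes of -0.17 (SE 0.06, edgeR adjusted p = 0.0218) and -0.25 (SE 0.05, edgeR adjusted p = 0.000373). Sdha, the flavoprotein, and Sdhc, the other anchor, did not pass. Sdhd had 148, 139 and 151 CPM in KO, against 176, 172 and 170 CPM in WT. Sdha had 290, 300 and 313 CPM in KO, against 318, 300 and 297 CPM in WT. The KO and WT values of Sdhb and Sdhd were apart, and those of Sdha and Sdhc overlapped.

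All 8 members of complex III (cytochrome bc1) fell in ID8, and within a narrow range of log2 fold change, -0.32 to -0.15. Uqcr10, a small accessory subunit, had 118, 120 and 119 CPM in KO, against 159, 145 and 140 CPM in WT (log2 -0.32, SE 0.05, edgeR adjusted p = 7.31e-05). Uqcrc1 and Uqcrc2, the large core proteins, had log2 fold changes of -0.15 (SE 0.05, edgeR adjusted p = 0.0172) and -0.18 (SE 0.05, edgeR adjusted p = 0.00563). Uqcrfs1, the Rieske iron-sulphur protein, changed by -0.16 (SE 0.05, edgeR adjusted p = 0.0114).

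Complex IV had the largest median log2 fold change of the complexes in ID8, -0.35, and 12 of its 13 tested members fell. Cox4i1, the common form of the largest nuclear-encoded subunit, had 323, 310 and 308 CPM in KO, against 455, 394 and 444 CPM in WT (log2 -0.46, SE 0.05, edgeR adjusted p = 3e-06). Cox7b had 133, 121 and 117 CPM in KO, against 188, 181 and 200 CPM in WT (log2 -0.62, SE 0.06, edgeR adjusted p = 1.2e-07). For both genes the highest KO library was well below the lowest WT library.

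Cox6c varied more. It had 125, 105 and 140 CPM in KO, against 255, 180 and 190 CPM in WT, and the first WT library stood above the others. Its log2 fold change was -0.76 with an SE of 0.19 (edgeR adjusted p = 0.0305). Cox5a and Cox5b, which sit on the matrix side of the enzyme, had log2 fold changes of -0.15 (SE 0.05, edgeR adjusted p = 0.0308) and -0.41 (SE 0.08, edgeR adjusted p = 0.00218).

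Cox8a, the common form of the smallest subunit, was the exception in complex IV. It had 696, 630 and 670 CPM in KO, against 653, 661 and 719 CPM in WT, and the groups overlapped (log2 -0.03, SE 0.05, edgeR adjusted p = 0.714).

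In complex V, 13 of 17 tested members fell in ID8. All 3 genes of the c-ring, the rotor that turns as protons pass, fell: Atp5g1 by 18.9%, Atp5g2 by 28.9% and Atp5g3 by 23.0%. Atp5g2 had 280, 317 and 344 CPM in KO, against 415, 463 and 446 CPM in WT (log2 -0.49, SE 0.07, edgeR adjusted p = 3.46e-05). The 3 genes encode the same mature protein with different import signals.

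Of the 5 genes of the F1 head, where ATP is made, 4 fell. Atp5b, the catalytic beta subunit, had 1167, 1072 and 1191 CPM in KO, against 1367, 1302 and 1308 CPM in WT (log2 -0.21, SE 0.05, edgeR adjusted p = 0.00218). Atp5a1, the alpha subunit, changed by -0.15 (SE 0.05, edgeR adjusted p = 0.0101) and Atp5c1, the central stalk, by -0.31 (SE 0.05, edgeR adjusted p = 0.000141). Atpif1, the inhibitor of the ATP synthase and no member of the set, averaged 197.3 ± 10.5 CPM in KO and 228 ± 17.3 CPM in WT (SD, n = 3 each; log2 -0.21, SE 0.06, edgeR adjusted p = 0.0062).

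Transcript length was taken as the median over all annotated protein-coding transcripts of a gene, with no choice of a main one. It need not be that of the main mRNA: Ndufs1 had 651 nt and Atp5g1 2675.5 nt. By this measure the 83 members that have a length had a median of 645 nt. Genes that were short by it were, as a class, lower in ID8 KO. Below 750 nt, 32.8% of the 1008 other tested genes fell, with a median log2 fold change of -0.06, against 34 of 46 members, with a median of -0.29. From 4000 nt up, 21.7% of other genes fell. In KPC, 8.55% of the 1135 other tested genes below 750 nt rose, with a median of 0.05. Of members below 750 nt, 6 of 49 rose there, with a median of 0.19. From 4000 nt up, 2.99% of other genes rose in KPC, with a median of -0.115. No member of 750 nt or more was called in KPC, and their median was 0.05 from 750 to 1000 nt and from 1000 to 1500 nt. The part that length plays in the member results of either line was not tested beyond this.

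**Figure D3:**
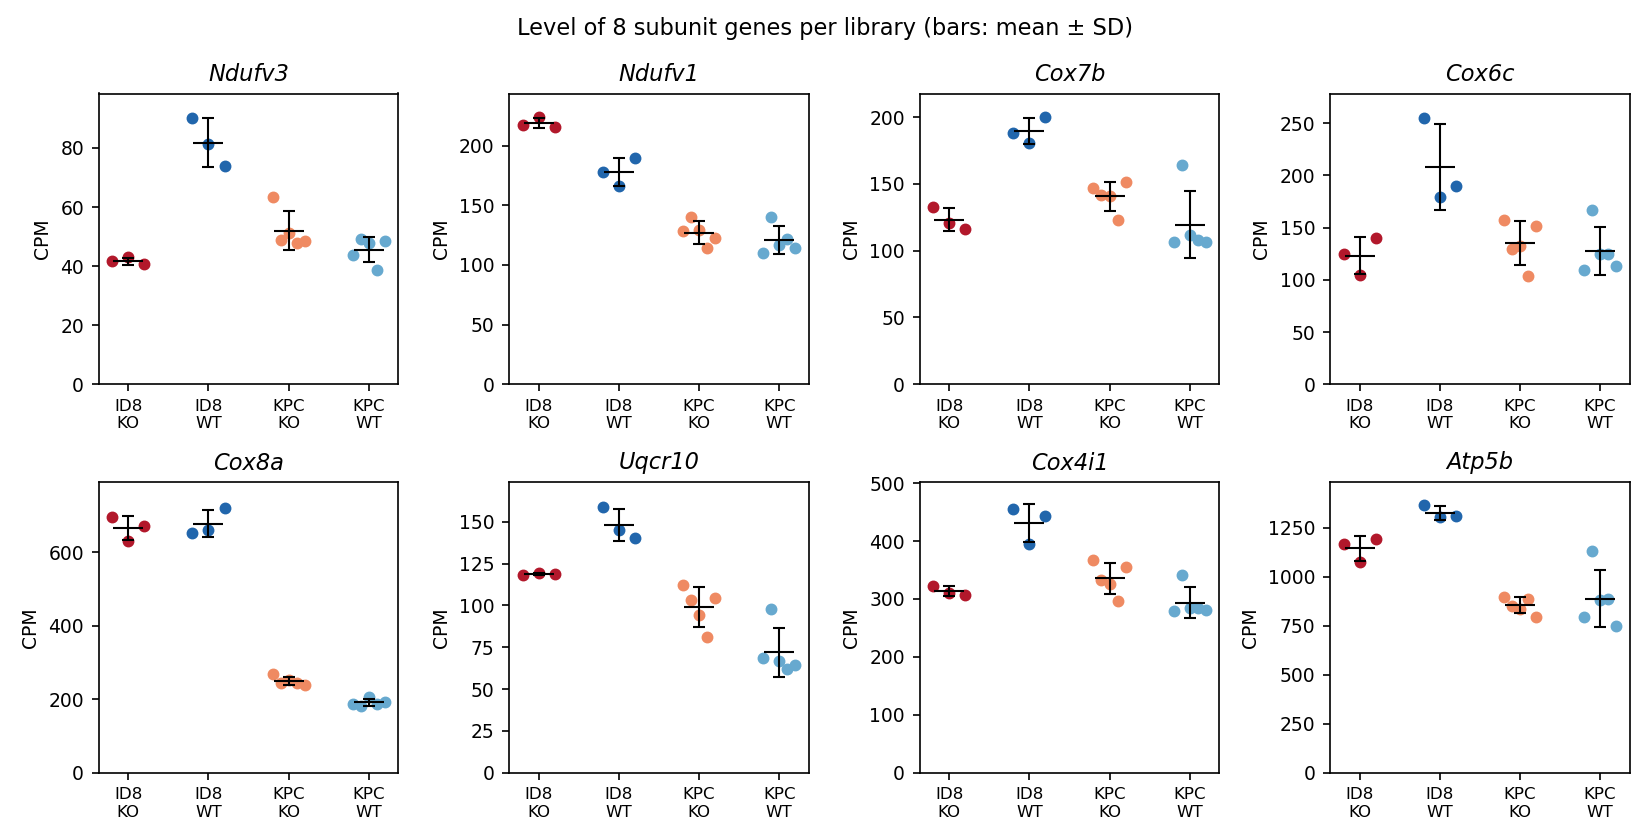
Level of 8 members (CPM, axes from 0) in each library of ID8 KO, ID8 WT, KPC KO and KPC WT, with bars for mean ± SD. Ndufv3, Cox7b, Cox6c, Cox4i1, Uqcr10 and Atp5b are lower in ID8 KO than in ID8 WT, Ndufv1 is higher, and Cox8a is higher in KPC KO than in KPC WT, with 240 to 269 CPM against 183 to 206 CPM.

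In KPC few members passed the test, and those that did were higher in KO. Of 83 tested members 6 rose (7.23%), where 6.67% of all 14283 tested genes rose, so the share was near that of all genes. None fell by edgeR, where 7.01% of all genes fell. At an unadjusted p under 0.05, 15 members were higher and 1 lower, and DESeq2 called 11 higher and 0 lower, where it called 11.4% of all genes higher. The median log2 fold change was 0.14 over the members and -0.01 over all tested genes, with 63 values above 0 and 20 below. The groups lay fully apart, KO above WT, for 2 members, Cox8a and Cox6a1, where 5.34% of all genes did. For no member did all KO libraries lie below all WT libraries, where 6.42% of all genes did.

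Cox8a had 269, 245, 253, 245 and 240 CPM in KO, against 187, 183, 206, 187 and 193 CPM in WT. Its lowest KO library exceeded its highest WT library. Its change on the log2 scale was 0.39 (SE 0.06, edgeR adjusted p = 0.00345), the smallest adjusted p among the members called in KPC. Cox6a1, the common form of another small subunit of complex IV, had 196, 154, 165, 161 and 174 CPM in KO, against 153, 137, 145, 147 and 139 CPM in WT. It did not pass the test (log2 0.24, SE 0.07, edgeR adjusted p = 0.0514).

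Uqcr10 of complex III had 112, 103, 94.5, 80.9 and 105 CPM in KO, against 68.8, 97.9, 66.8, 62.1 and 64.5 CPM in WT (log2 0.46, SE 0.13, edgeR adjusted p = 0.0436). The second WT library was in the range of KO, and the other WT libraries were below it. Ndufa1 of complex I had 42.5, 39.8, 39.6, 33.4 and 42.9 CPM in KO, against 26.2, 37.6, 27.1, 29.0 and 25.5 CPM in WT (log2 0.45, SE 0.12, edgeR adjusted p = 0.0305). Again the second WT library was the highest of its group.

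Cox5a had 172, 171, 163, 161 and 195 CPM in KO, against 118, 166, 125, 131 and 104 CPM in WT (log2 0.42, SE 0.11, edgeR adjusted p = 0.0368). Cox7a2, the form of subunit 7a found in most tissues, had a log2 fold change of 0.27 (SE 0.08, edgeR adjusted p = 0.0409). Atp5h, a subunit of the peripheral stalk of complex V, had 151, 121, 134, 112 and 144 CPM in KO, against 107, 122, 101, 96.2 and 105 CPM in WT (log2 0.32, SE 0.09, edgeR adjusted p = 0.0444).

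The abundant catalytic genes did not pass in KPC. Atp5b had 895, 852, 835, 888 and 796 CPM in KO, against 795, 1128, 882, 888 and 747 CPM in WT, a log2 fold change of -0.06 (SE 0.10, edgeR adjusted p = 0.73). Atp5a1 had -0.23 (SE 0.09, edgeR adjusted p = 0.117) and Atp5c1 -0.02 (SE 0.11, edgeR adjusted p = 0.901). Of complex II, Sdhd was nearest to the threshold (log2 0.17, SE 0.05, edgeR adjusted p = 0.0586). Sdha (-0.09, SE 0.11), Sdhb (0.14, SE 0.14) and Sdhc (-0.15, SE 0.08) lay further off. Ndufs1 (-0.22, SE 0.12) and Ndufv1 (0.07, SE 0.08) likewise had log2 fold changes that did not pass. Atpif1 averaged 125 ± 13.4 CPM in KO and 102 ± 11.1 CPM in WT (SD, n = 5 each; log2 0.29, SE 0.10, edgeR adjusted p = 0.066).

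KPC WT replicate 2 weighed on these values. Summed over all members, KPC KO libraries held 10330, 9253, 9269, 8453 and 9820 CPM, against 8263, 11270, 8621, 8480 and 8023 CPM in WT. WT replicate 2 was above every KO library, and the other 4 WT libraries were below every KO library but replicate 4. Without it, 16 members rose, 76 of 84 log2 fold changes were positive and the median was 0.26, while 3.75% of all genes rose. Leaving out other single libraries gave 1 to 6 members higher, where 2.85% to 11.5% of all genes rose. It gave 1 for WT replicates 1, 3 and 5 and for KO replicates 1, 3 and 5.

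That library was also the highest in transcripts of skeletal muscle. The 21 fixed muscle markers summed to 75.1, 6045, 29.7, 75.3 and 8695 CPM in KPC KO and to 3698, 43710, 2309, 9661 and 829.6 CPM in KPC WT, with none of the 21 at 0 in either group. In ID8 they summed to 7.41 to 8.94 CPM in KO, with 12 of 21 at 0, and to 23.9 to 27.3 CPM in WT, with 10 of 21 at 0. Among those at 0 in both ID8 groups were the myosin heavy chains Myh1, Myh2, Myh4 and Myh7. Actn3 alone made up most of the ID8 sums, with 6.56 ± 0.648 CPM in KO and 23.5 ± 1.5 CPM in WT (SD, n = 3 each). Also tested in ID8 were Tnnc1, called lower, and Mylpf, not called (log2 0.24, SE 0.32). Both had at most 1.29 CPM in any ID8 library. With a muscle score as a covariate, 3 members rose in KPC, where 0.987% of all genes rose. The median log2 fold change of members was then 0.24. Without the 4 libraries with Acta1, skeletal muscle actin, above 1000 CPM, 6 members rose, where 8.33% of all genes rose. In that fit 2 members fell (Cox6a2 and Cox8b), where 5.78% of all genes fell, and the median was 0.26. The epithelial markers moved with genotype too, at 7994 to 9834 CPM in KO and 4787 to 6007 CPM in WT, with 4 of 5 called higher. Markers of leukocytes and macrophages summed to 2000 to 3070 CPM in KO and 1159 to 2554 CPM in WT, with none of 6 called by edgeR, 4 called higher by DESeq2 and 5 higher at an unadjusted p under 0.05. The part of the epithelial and leukocyte values in the subunit values was not tested.

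The muscle forms of complex IV broadly followed the muscle markers from library to library, Cox7a1 less closely than the others. Cox6a2, the heart and muscle form of subunit 6a, had 0.924, 11.3, 0.671, 0.943 and 20.1 CPM in KPC KO, against 12.3, 89.1, 6.04, 20.9 and 1.203 CPM in WT. Ranked by Cox6a2, the libraries stood in the same order as by the muscle marker sum, apart from KO replicate 2 and WT replicate 1, which changed places. Cox7a1, the muscle form of subunit 7a, had 0.979, 1.22, 0.568, 0.833 and 3.09 CPM in KO, against 2.02, 13.01, 0.929, 4.75 and 0.711 CPM in WT. Cox7a1 was higher in KO replicate 1 than in WT replicates 3 and 5. Muscle markers summed to 75.1 CPM in that KO library, against 2309 and 829.6 CPM in those WT libraries. Cox8b, the muscle form of subunit 8, had 0.381, 2.59, 0, 0.0555 and 5.44 CPM in KO, against 3.05, 24.4, 2.17, 6.14 and 0.930 CPM in WT. None of the 3 passed in KPC, with log2 fold changes of -1.93 (SE 1.26), -1.67 (SE 0.80) and -2.11 (SE 1.24).

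**Figure D4:**
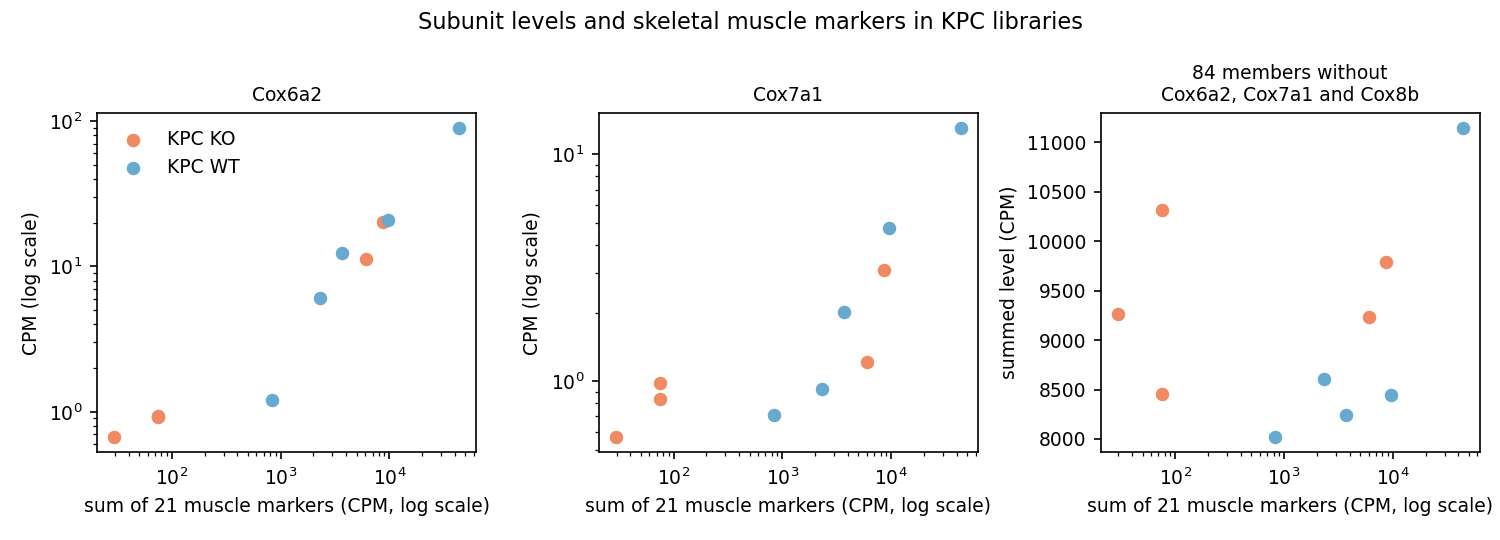
Level of Cox6a2, Cox7a1 and the sum of the other 84 members against the summed 21 muscle markers (CPM, log scale) in the 5 KPC KO and 5 KPC WT libraries. Cox6a2 is highest, at 89.1 CPM, in the WT library with 43710 CPM of muscle markers, which also has the highest sum of the other members.

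On a scale that allows for transcript length, Cox6a2 made up 0.394%, 5.78%, 0.341%, 0.49% and 8.86% of Cox6a1 plus Cox6a2 in KPC KO, against 6.33%, 35.3%, 3.38%, 10.6% and 0.723% in KPC WT. In ID8 KO it made up 0.0174% to 0.0339%, and in ID8 WT 0 to 0.0166%, and Cox8b was at 0 in all ID8 libraries. Cox6a2 had 4 counts over the ID8 KO libraries and 1 over the ID8 WT libraries, too few for the test. Cox7a1 was the muscle form that passed the count filter in ID8, at 1.58, 1.49 and 1.54 CPM in KO, against 2.87, 3.59 and 2.84 CPM in WT. Those groups lay apart (log2 -1.01, SE 0.18, edgeR adjusted p = 0.00022).

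The forms linked to low oxygen were nearly absent in ID8 and less abundant than their common counterparts in KPC. Ndufa4l2, a hypoxia-inducible relative of Ndufa4, had 21.04, 9.51, 9.19, 15.9 and 12.9 CPM in KPC KO, against 6.78, 6.21, 9.39, 11.2 and 6.40 CPM in WT, and did not pass (log2 0.78, SE 0.26, edgeR adjusted p = 0.0669). Ndufa4 had 103, 88.8, 95.9, 62.6 and 112 CPM in KPC KO, against 112, 158, 109, 95.2 and 110 CPM in WT (log2 -0.34, SE 0.17, edgeR adjusted p = 0.188). Per unit of length, Ndufa4l2 was 4.51% to 11.1% of the pair in KPC KO and 1.90% to 5.45% in KPC WT, and at most 0.0211% in any ID8 library. Cox4i2, the form of subunit 4 used in lung and under low oxygen, had 0.740 to 3.26 CPM in KPC KO and 0.466 to 0.980 CPM in KPC WT (log2 1.13, SE 0.40, edgeR adjusted p = 0.0813).

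Of the other isoform families, the second genes were at or under the count filter and the common ones were abundant. Cox6b2, a testis form, had at most 0.878 CPM in any library. Cox7b2 had no counts in any KPC library and had at most 0.210 CPM in ID8. Cox7a2l, which helps to join complexes III and IV, fell in ID8 (log2 -0.35, SE 0.05, edgeR adjusted p = 8.26e-06), with a log2 fold change of -0.01 (SE 0.08) in KPC. Cox6b1, the common partner of Cox6b2, likewise fell in ID8 (log2 -0.28, SE 0.07, edgeR adjusted p = 0.00484) and had 0.22 (SE 0.11) in KPC.

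The knockout effect was then compared between the lines in a fit over all 16 libraries, taking the KPC change minus the ID8 change. It was higher in KPC for 31 of 84 tested members (36.9%), where 11.6% of all 14921 tested genes were higher. No member was lower by edgeR, where 10.3% of all genes were, and none was lower at an unadjusted p under 0.05 or by DESeq2, which called 33 higher. The median difference was 0.37 over the members and 0.01 over all genes on the log2 scale. By complex, 12 of 37 members of complex I differed, 1 of 4 of complex II, 3 of 8 of complex III, 10 of 18 of complex IV and 5 of 17 of complex V.

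Ndufv3 differed most among the called members. Its KPC levels were 63.6, 48.9, 51.3, 47.9 and 48.6 CPM in KO, against 43.8, 49.2, 47.7, 38.8 and 48.7 CPM in WT, and so overlapped, unlike in ID8. The difference of the log2 fold changes was 1.19 (SE 0.14, edgeR adjusted p = 4.57e-05). Next came Ndufa1 with 1.08 (SE 0.19, edgeR adjusted p = 0.00123), Cox7b with 0.88 (SE 0.17, edgeR adjusted p = 0.00204) and Cox6c with 0.86 (SE 0.23, edgeR adjusted p = 0.0149). Uqcr10 had 0.80 (SE 0.18, edgeR adjusted p = 0.00522), and Ndufb10, a membrane arm subunit of complex I, 0.76 (SE 0.16, edgeR adjusted p = 0.0032). All 3 c-ring genes were among the 31, while none of the 5 genes of the F1 head was.

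Called in both lines were 4 members, each lower in ID8 KO and higher in KPC KO: Ndufa1, Uqcr10, Cox5a and Cox7a2. All 4 were among the 31. No member was called in the same direction in both lines. Without KPC WT replicate 2, 44 members differed, all higher, where 11.4% of all genes were higher. Leaving out ID8 WT replicate 1 left 16, where 8.19% of all genes were higher. Leaving out ID8 KO replicate 1 left 18, where 8.55% were.

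**Figure D5:**
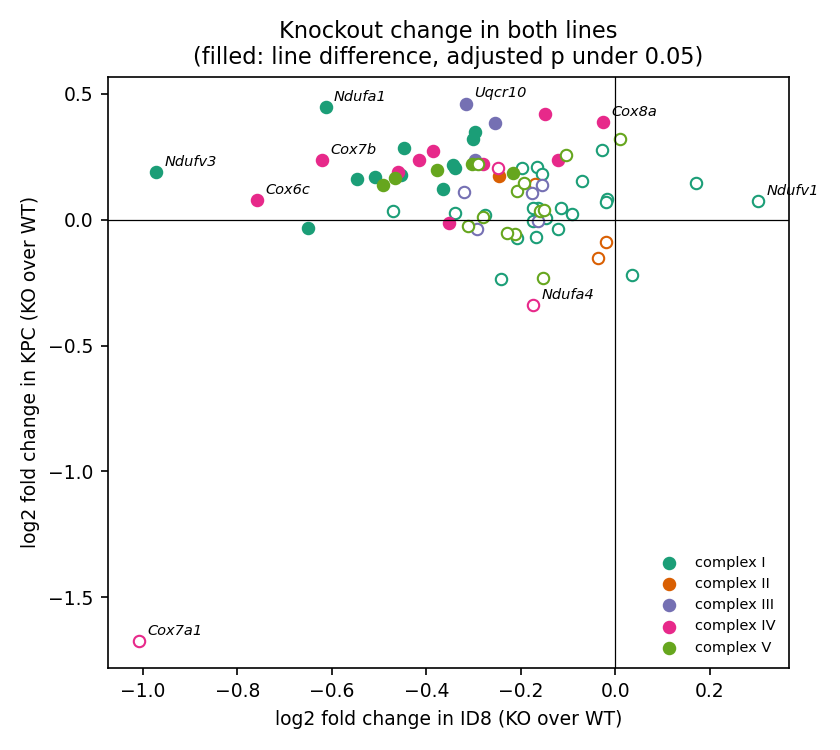
Log2 fold change (KO over WT) in ID8 and in KPC for each member tested in both lines, coloured by complex, with filled points where the difference between lines had an edgeR adjusted p under 0.05. Most points lie left of 0 on the ID8 axis and above 0 on the KPC axis, among them Ndufa1 at -0.61 and 0.45, and Cox7a1 lies below 0 on both.

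Genes that work with the subunits did not all move as they did. In ID8 all 17 fixed glycolysis genes fell in KO, where 25.5% of all genes fell, with a median log2 fold change of -0.88. Pdk1, the kinase that shuts pyruvate dehydrogenase, had 140, 143 and 147 CPM in KO, against 380, 338 and 359 CPM in WT (log2 -1.32, SE 0.05, edgeR adjusted p = 3.76e-12). Slc16a3, the lactate exporter, changed by -1.33 (SE 0.05, edgeR adjusted p = 1.83e-12), Pfkl, a phosphofructokinase, by -1.05 (SE 0.05, edgeR adjusted p = 1.2e-10) and Ldha, lactate dehydrogenase A, by -0.95 (SE 0.05, edgeR adjusted p = 1.78e-10). In KPC edgeR called none of the 17, with 3 higher and 0 lower at an unadjusted p under 0.05, DESeq2 called 2 higher, and the median was 0.04. In the comparison of lines 13 of the 17 were higher, where 11.6% of all genes were.

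Enzymes of the tricarboxylic acid cycle and pyruvate dehydrogenase fell at 9 of 16 in ID8, by edgeR and by DESeq2. Of all genes, 25.5% fell by edgeR and 23.1% by DESeq2. Idh3g, a subunit of isocitrate dehydrogenase, changed by -0.52 (SE 0.06, edgeR adjusted p = 1.02e-06) and Pdha1, the E1 subunit of pyruvate dehydrogenase, by -0.38 (SE 0.04, edgeR adjusted p = 2.55e-06). In KPC none of the 16 was called by edgeR or DESeq2, and 1 was lower at an unadjusted p under 0.05. Proteins of the mitochondrial ribosome had calls in both directions in ID8, with 18 of 78 lower, where 25.5% of all genes were, and 13 higher, where 25.4% were. In KPC 3 of 78 were higher by edgeR, where 6.67% of all genes were, and 8 by DESeq2, where 11.4% were. Mrpl14 of the large subunit changed by -0.57 in ID8 (SE 0.06, edgeR adjusted p = 6.02e-07).

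Assembly factors, which build the complexes but are not part of them, had calls in both directions in ID8. Of 47 tested, 12 rose and 6 fell, with a median log2 fold change of 0.07. The share that rose was near the 25.4% of all genes, while the share that fell was below the 25.5% of all genes. Cox10 and Cox15, enzymes of the synthesis of haem A for complex IV, rose by 0.62 (SE 0.08, edgeR adjusted p = 4.33e-06) and 0.42 (SE 0.05, edgeR adjusted p = 1.77e-06). Cox14 (-0.71, SE 0.07, edgeR adjusted p = 3.85e-07) and Surf1 (-0.45, SE 0.06, edgeR adjusted p = 1.53e-05), which also serve complex IV, fell. In KPC, where 6.67% of all genes rose, 4 of 47 rose, namely Sdhaf1, Sdhaf2, Cox17 and Coa3.

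Of 14 regulators of mitochondrial biogenesis, 5 rose in ID8 by edgeR, where 25.4% of all genes rose, and 4 rose by DESeq2, where 20.9% did. Pprc1, a coactivator related to PGC-1, rose by 0.85 (SE 0.05, edgeR adjusted p = 2.09e-09). Ppargc1a, the gene of PGC-1alpha, was scarce, with 2.96, 2.72 and 2.47 CPM in ID8 KO, against 1.46, 1.53 and 1.73 CPM in ID8 WT (log2 0.78, SE 0.18, edgeR adjusted p = 0.00186). In KPC it had 0.272, 0.687, 0.929, 0.555 and 0.680 CPM in KO, against 4.71, 4.90, 1.75, 1.34 and 3.99 CPM in WT. KO lay above WT in every ID8 library and below WT in every KPC library, with a log2 fold change of -2.40 in KPC (SE 0.43, edgeR adjusted p = 0.00856). Gabpa (-0.29, SE 0.06, edgeR adjusted p = 0.0168) also fell in KPC, as did Tfb2m (-0.35, SE 0.08, edgeR adjusted p = 0.0225), while Ppargc1b rose (1.08, SE 0.26, edgeR adjusted p = 0.024). In all, 4 of 14 fell in KPC, where 7.01% of all genes fell, and 1 rose, where 6.67% did.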

How the data were processed

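RNA of 16 mouse samples was sequenced, and each sample's group and number were read from its label. The tables as deposited hold expected counts per gene. HISAT and RSEM 1.2.8 and the build GRCm39 (mm39) are named in the submitters' processing notes. Between 7.92% and 8.96% of values per table were not whole. Values were rounded, and a gene that a table lacks was set to 0. All 16 columns were matched to a sample, and each table lists 84 to 86 of the 87 members. The protocols do not say that replicates come from separate animals, so p-values measure the spread between these samples.

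Counts were filtered with filterByExpr, scaled by TMM and tested by the robust quasi-likelihood F test of edgeR 4.0.16 (R 4.3.3, limma 3.58.1), with Benjamini-Hochberg adjustment over all tested genes and a threshold of 0.05. Each line was fitted alone, and an interaction contrast over 16 libraries compared the lines. The SE was derived as |log2 fold change| over √F. A count of 3 equals 0.152 to 0.168 CPM, which covers counting error only. No 2 replicates were alike within sampling noise (lowest chi-square of 4.36 per gene). Members, companion lists and cell markers were chosen with earlier results of these data known.

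Named members are the 6 largest called changes per direction and comparison, isoform families, fixed representatives of each complex (1 of them is not reported here), members called in both lines and, of each companion list, up to 4 called genes of smallest p per line. Atp5g1, Atp5g2, Atp5g3 and single cell type markers were named after their values were seen. DESeq2 1.42.0 was an alternative. Simulated 1.5-fold changes were recovered at 97% in ID8 (11839 genes), 32.8% in KPC (14208 genes) and 25.4% for the comparison of lines (14633 genes), with 5.71%, 2.1% and 1.63% of calls false. The simulation changed only a small set of well-counted genes and left all others unchanged. The real fits called 50.8%, 13.7% and 21.8% of genes, so these shares need not hold for them. Transcript lengths are medians over the protein-coding transcripts of a gene in GENCODE, and the isoform shares per length rest on them. These lengths and the RefSeq promoters are on GRCm38, and positions in the build of the tables are not used here. Near-identical genes such as Ndufb4b and Ndufb4c may share reads and are uncertain. No endothelial, fibroblast, adipocyte or red cell marker was called in KPC by edgeR, and 3 adipocyte genes were lower by DESeq2. At an unadjusted p under 0.05, 5 adipocyte genes were lower and 1 endothelial gene was higher.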

Additional observations from a re-analysis of the deposited data

Results flagged for a closer look

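KPC WT replicate 2 lay far from the other 4 KPC WT libraries in 23 of the 29 cases found by Dixon's ratio among 84 groups of 5 libraries. Chance gives about 1 in 20 for a single group. The groups are related genes and their sums in the same libraries, so 1 deviant library can be found many times over. The summed level of KPC WT replicate 2 was 2873 CPM for complex I, 674 CPM for complex II, 1002 CPM for complex III, 2311 CPM for complex IV and 11270 CPM for all members. Its level was 341.4 CPM for Cox4i1, 89.09 CPM for Cox6a2, 167.4 CPM for Cox6c, 164.3 CPM for Cox7b, 24.4 CPM for Cox8b, 37.63 CPM for Ndufa1 and 158.1 CPM for Ndufa4. Further levels in it were 90.01 CPM for Ndufb10, 148.8 CPM for Ndufb8, 97.64 CPM for Ndufb9, 115.7 CPM for Ndufs1, 284.6 CPM for Sdha and 116.0 CPM for Sdhb. It also had 139.8 CPM for Sdhc, 97.91 CPM for Uqcr10, 184.7 CPM for Uqcrc1, 153.6 CPM for Uqcrc2 and 125.4 CPM for Uqcrfs1. Muscle markers were highest in this library too. The part of muscle in these values was not tested, other than by the KPC fits with a muscle covariate and without muscle-rich libraries.

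Single KPC KO libraries stood apart for 6 members. Replicate 1 had 214.1 CPM of Atp5c1 and 63.55 CPM of Ndufv3, and replicate 2 had 83.0 CPM of Ndufs1 and 209.8 CPM of Sdha. Replicate 4 had 132.4 CPM of Sdhd, and replicate 5 had 3.087 CPM of Cox7a1.

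For 16 named members the interaction test called a difference between lines, each with a higher log2 fold change in KPC than in ID8. The differences, KPC minus ID8, were those of Cox4i1 (0.68), Cox5a (0.59), Cox5b (0.68), Cox6a1 (0.38), Cox6b1 (0.52), Cox6c (0.86), Cox7a2 (0.68) and Cox7a2l (0.36). They were also called for Cox7b (0.88), Cox8a (0.44), Ndufa1 (1.08), Ndufb10 (0.76), Ndufb9 (0.65), Ndufv3 (1.19), Sdhd (0.44) and Uqcr10 (0.80).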

How the results depend on the processing

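Under the alternatives run, the members kept a negative median in ID8 (-0.25 to -0.21) and a positive one in KPC (0.09 to 0.26) and in the comparison of lines (0.29 to 0.50), and no named value that was called changed sign. In ID8, members called lower numbered 17 in a joint fit of the 4 groups, where 10.1% of all genes were lower, and 56 with DESeq2, where 23.1% were. They numbered 44 to 60 when 1 library was left out, where 23% to 24.7% of all genes were lower. Those called higher numbered 2 with no filter, where 20.1% of all genes were higher. They numbered 1 to 2 when 1 library was left out, where 21.4% to 23.4% were. In KPC, members called higher numbered 11 with DESeq2, where 11.4% of all genes were higher, and 14 in the joint fit, where 12.5% were. They numbered 3 with a muscle covariate, where 0.987% were. When 1 library was left out they numbered 1 to 16, where 2.85% to 11.5% of all genes were higher. Without the libraries rich in Acta1, 2 members were called lower, where 5.78% of all genes were. In the comparison of lines, 16 to 44 members were higher when 1 library was left out, where 8.19% to 12.8% of all genes were. Without the libraries rich in Acta1, a setting added after the data were seen, 44 were higher, where 13.6% of all genes were. Replicate numbers did not pair samples (correlation of deviations -0.54 to 0.59, and not every library correlated best with its own number). With a replicate block, ID8 had 2 members higher, where 24.4% of all genes were, and 58 lower, where 24.7% were. KPC had 3 higher, where 6.81% of all genes were, and the comparison of lines 24 higher, where 10.4% were. The cause of these shifts was not tested. Over the named members taken singly, 1706 values kept their sign and their side of the threshold, 100 lost a call and 33 gained one. A further 54 changed sign but were not called in either setting. The wide spread in KPC limits what can be seen there: 1.5-fold changes were recovered in 32.8% of simulated cases, against 97% in ID8. Fewer genes were changed in the simulation than were called in the data.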
